A study of Rattus norvegicus with 30 samples.

Results

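Acetaminophen at 5000 µM was compared with its vehicle in primary rat hepatocytes after 48 h of exposure, on 5 arrays of each, which were 10 of the 30 arrays of a dose and time study. The arrays were chosen by their titles alone, so no measured value entered the choice. Both groups were male Sprague Dawley rat hepatocytes bought frozen, plated on collagen, overlaid with Matrigel and dosed on day 3 of culture, and both received 1% DMSO. The treated wells also received 5000 µM acetaminophen. Each array held RNA from 1 culture well, and the labels call the 5 wells of a group independent cultures. The labels do not say whether the cells came from 1 animal or several, so each p-value measures the spread between wells. The other arrays compared beside these were 5 of 500 µM at 48 h, 5 of 5000 µM at 24 h and 5 of vehicle at 24 h. All were in the same medium with 1% DMSO. The 5 arrays of 500 µM at 24 h were in no comparison. They entered the spread used by the fit and the choice of probe sets and genes tested.

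Acetaminophen is an analgesic that the liver clears mainly by glucuronidation and sulfation. Cytochrome P450 enzymes, CYP2E1 among them, oxidise a small part of it to a reactive quinone imine that glutathione traps. Rat hepatocytes are known to resist its toxicity better than mouse hepatocytes. In culture, hepatocytes lose liver functions and gain cytoskeletal and matrix genes with time, so each treated group is set against vehicle wells of the same time.

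All values below are MAS5 signals of the brightest probe set per gene, and differences are log2 signal at 5000 µM minus log2 signal in vehicle wells. A gene was called where limma's p-value, adjusted by the Benjamini-Hochberg method over the 8531 genes tested, was under 0.05. Over those genes the median difference was -0.01. The correlation of each of the 10 arrays with the mean of its group lay between 0.976 and 0.981. A sign of RNA quality, the log2 signal of the 3′ actin probe set less that of the 5′ one, averaged 1.21 ± 0.05 at 5000 µM and 1.24 ± 0.11 in vehicle wells (SD, n = 5 each; difference -0.03, exact two-sided permutation p = 0.579). The same ratio differed in other groups. Its median was 1.81 at 500 µM and 48 h, 1.29 at 5000 µM and 24 h, and 1.90 in vehicle wells at 24 h. The tests between times and between doses are therefore also given with the ratio as a covariate, over all genes and for some named genes. Calls at 24 h, differences of 500 µM from vehicle, and counts between times within lists are given without it.

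At 48 h, 2779 genes were called, which is 32.6% of those tested. They divided into 1243 called higher at 5000 µM (14.6%) and 1536 called lower (18%). Most differences were small, since the median absolute difference was 0.16. At least 2-fold changes were fewer, with 25 genes called higher (0.293%) and 92 called lower (1.08%). The 5 arrays at 5000 µM all lay above or all lay below the 5 vehicle arrays for 25.4% of genes. In bulk RNA, fewer cells of a type and less RNA per cell cannot be told apart, and scaling every array to 1 mean removes any change in total RNA.

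**Figure D1:**
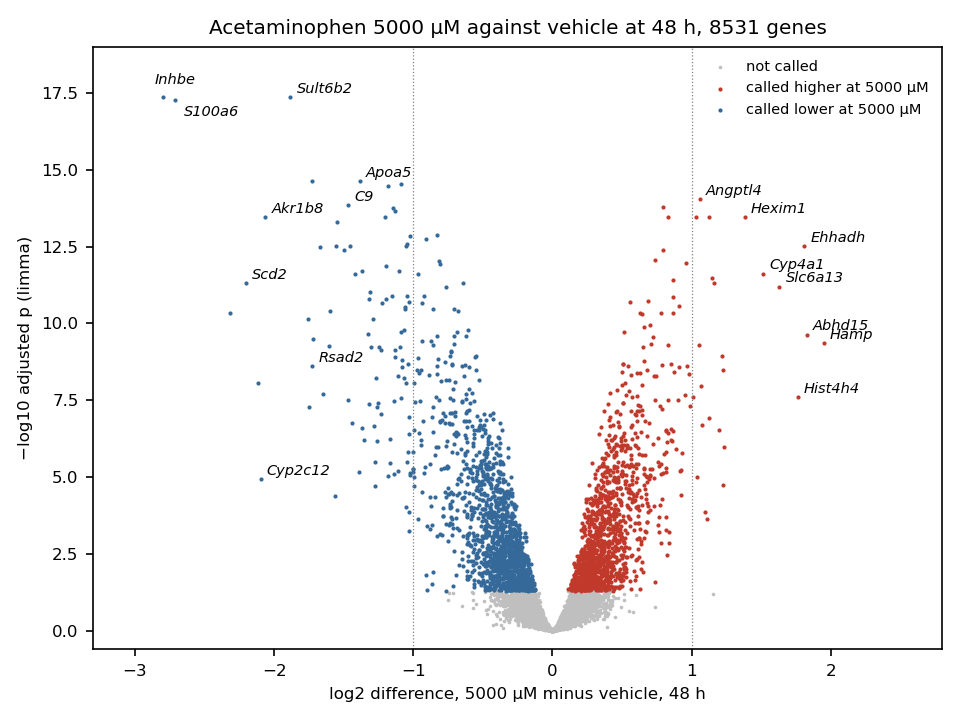
Log2 difference (5000 µM minus vehicle, horizontal axis) against −log10 of limma's adjusted p (vertical axis) for the 8531 genes tested at 48 h. Dotted lines mark a 2-fold change, which 92 called genes passed downwards and 25 upwards. Inhbe and S100a6 lie farthest to the left, Hamp farthest to the right.

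The labelled cell type was checked against marker genes. Of 13 hepatocyte markers tested, 1 was called higher and 1 lower, with a median difference of 0.03 (all genes: 14.6% and 18%). The higher one was Cyp2e1 and the lower one was Ahsg, a secreted glycoprotein (-0.27). Albumin, Alb, had signals between 42525 and 70198 at 5000 µM, against 48336 to 66155 in vehicle wells, and the groups overlapped. Markers of other liver cells were mostly dim: 2 of 17 Kupffer cell and leukocyte markers on the array passed the filter on dim genes, as did 3 of 16 stellate, 3 of 13 endothelial and 2 of 10 cholangiocyte markers. None of these 10 genes was called higher, while Acta2 (-0.47), Eng (-0.87) and Epcam (-0.14) were called lower. Over all genes 14.6% were called higher and 18% lower, and 10 genes are too few to tell a difference from those shares. The calls of Eng and Epcam were lost in 7 and 11 of 22 alternative settings, and Eng was -0.49 without its dimmest treated array. The summed signal of the stellate markers lay between 3941 and 4696 at 5000 µM, against 4177 to 4872 in vehicle wells. That of the cholangiocyte markers lay between 13550.1 and 14614 at 5000 µM, below the 15200.2 to 16038 of vehicle wells. Most of this sum was Epcam, with means of 12186 at 5000 µM and 13446 in vehicle wells. The gap therefore largely repeats the Epcam result and does not show a fall across these markers. Aqp1, the other one tested, was not called (-0.22). Groups did not overlap for 25.4% of all genes. Kupffer cell markers summed to 10223 to 12039 at 5000 µM, against 10500.1 to 13017 in vehicle wells, and endothelial markers to 2834 to 3929.8 at 5000 µM, against 2427 to 3388 in vehicle wells. The part of such cells in the results below was not tested.

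Genes of fatty acid oxidation were higher at 5000 µM. PPAR-alpha is a nuclear receptor that binds fatty acids and fibrate drugs and switches on peroxisomal, microsomal and mitochondrial fatty acid oxidation, a response that is strong in rat liver. Of 40 tested members of a list of PPAR-alpha targets and oxidation enzymes, 32 were called higher and 2 lower, with a median difference of 0.48, against 14.6% called higher and a median of -0.01 over all genes tested. Members ranged from -0.999 to 1.81. Ehhadh, the peroxisomal bifunctional enzyme of beta-oxidation, had signals of 7026, 6735, 6946, 9809 and 8661 at 5000 µM, against 2345, 2428, 2157, 1859 and 2306 in vehicle wells. The lowest treated array was well above the highest vehicle array. The log2 difference of Ehhadh was 1.81 ± 0.12 (SE; limma adjusted p = 2.97e-13), the largest in the list.

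Cyp4a1, a fatty acid omega-hydroxylase of the microsomes, gave 34990.1, 30907, 29885, 37295 and 26750.5 at 5000 µM, against 10116, 12044, 9618, 12774 and 11356 in vehicle wells. The groups did not overlap, and the log2 difference of Cyp4a1 was 1.51 ± 0.11 (SE; limma adjusted p = 2.37e-12). Angptl4, a secreted inhibitor of lipoprotein lipase, rose with little spread between wells: 20525, 23081, 22466, 20205 and 22474 at 5000 µM, against 9869, 10299, 10452, 10346 and 11213 in vehicle wells (1.06 ± 0.06 SE, limma adjusted p = 8.96e-15). The values of 4 further genes, chosen after they were seen, stand for other steps of the pathway. Cyp4a3, a second omega-hydroxylase, differed by 0.97, Acsl1, which activates fatty acids to acyl-CoA, by 0.96, Pdk4, a kinase that turns off pyruvate dehydrogenase, by 0.73, and Cpt1a, the carnitine palmitoyltransferase that admits fatty acids to mitochondria, by 0.66. In each of those 4 genes all treated arrays lay above all vehicle arrays. A second probe set of Acsl1 was also called higher (1.23), while the mean over all its probe sets, a dim one included, was 0.61.

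The members that were not higher included 2 well-known targets. Fabp1, the liver fatty acid binding protein, had 8599, 7707, 8029, 7954 and 6881 at 5000 µM, against 8519, 8419.7, 8676, 7728 and 7981 in vehicle wells, and the groups overlapped (-0.08 ± 0.06 SE, limma adjusted p = 0.359). Fgf21, a fasting hormone that both PPAR-alpha and ATF4 can switch on, fell: 1644, 1993, 1540.0, 1801 and 2161 at 5000 µM, against 2729.6, 3232, 3384, 4605 and 4549.9 in vehicle wells (-0.999 ± 0.15 SE, limma adjusted p = 5.6e-06). Vnn1, a pantetheinase, was the other member called lower (-0.26), though not after centring of each array on its median (limma adjusted p = 0.101).

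The rise of the oxidation genes differed in timing from gene to gene. At 24 h, on other arrays, 17 of the 40 members were called higher and 3 lower, with a median of 0.15, where 18.6% of all genes were called higher and 19.6% lower. The effect of 5000 µM was more positive at 48 h than at 24 h in 18 members and more negative in 1, by a test of the difference itself, against 7.74% and 8.66% of all genes. Ehhadh differed by -0.10 at 24 h, 1.92 below its difference at 48 h (difference of effects, limma adjusted p = 5.92e-09). Cyp4a1 differed by 0.32 at 24 h and Cyp4a3 by -0.01, and both effects were larger at 48 h (differences of 1.20 and 0.98, limma adjusted p = 2.83e-06 and 8.52e-06). Angptl4 and Cpt1a had reached 1.15 and 0.78 by 24 h, and their change between times was not called. Pdk4 went the other way, with 1.31 at 24 h (difference of effects -0.58, limma adjusted p = 0.000373). Fabp1, not called at 48 h, was -1.31 at 24 h.

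At 500 µM and 48 h, read against the same vehicle arrays, Ehhadh differed by 1.97, Cyp4a1 by 1.11, Acsl1 by 0.998, Cyp4a3 by 0.77 and Angptl4 by 0.50. Of these, Cyp4a1 and Angptl4 were higher at 5000 µM than at 500 µM, by 0.40 and 0.56 (limma adjusted p = 0.00379 and 7.75e-09). With the 3′ to 5′ ratio as a covariate only Angptl4 of the pair kept the call (limma adjusted p = 0.256 for Cyp4a1 and 8.73e-05 for Angptl4). Over all genes, 4064 (47.6%) were called between the doses, against 1782 with the covariate, of which 1541 were among the 4064 and in the same direction. The ratio lay between 1.735 and 1.997 on the 500 µM arrays at 48 h. At 5000 µM it lay between 1.149 and 1.287, and in vehicle wells between 1.090 and 1.341. The 500 µM arrays do not overlap the others in this ratio, so dose and ratio cannot be told apart in values that use them.

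The upstream sequence of Cyp4a3 is shown as an example of the list's promoters, with the hexamer AGGTCA, a nuclear receptor half-site, in capitals. PPAR-alpha binds pairs of such half-sites as a partner of RXR. The 250 bases before the gene start (RefSeq, GRCr8, chr5:134352237-134352486, minus strand, written 5′ to 3′ toward the gene) hold 1 match, at -105 from the start.
Cyp4a3: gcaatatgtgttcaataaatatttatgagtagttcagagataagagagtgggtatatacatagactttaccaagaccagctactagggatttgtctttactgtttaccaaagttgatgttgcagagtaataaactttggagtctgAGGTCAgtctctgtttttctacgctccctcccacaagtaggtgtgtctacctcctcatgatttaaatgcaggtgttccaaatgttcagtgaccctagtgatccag
Searched on both strands, the half-site occurred in 6 of the 26 members called higher that had a sequence (23.1%), in 8 of 33 tested members with one (24.2%) and in 14.1% of all 33469 RefSeq upstream windows of that length. A match to 6 letters is a description and not a binding site, and members were listed as PPAR-alpha targets or oxidation enzymes.

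Targets of ATF4 and CHOP were lower. ATF4 is the transcription factor of the integrated stress response, which amino acid shortage and endoplasmic reticulum stress switch on, and CHOP, encoded by Ddit3, is one of its targets. Of 44 tested members, 28 were called lower and 1 higher, with a median difference of -0.37 (all genes: 18% lower, median -0.01). Slc7a11, the cystine transporter that feeds glutathione synthesis, had 971, 1252, 1086, 1242 and 1292 at 5000 µM, against 2463, 2751, 2596, 2725 and 3106 in vehicle wells. All treated arrays were below all vehicle arrays, with a log2 difference of -1.23 ± 0.10 (SE; limma adjusted p = 2.17e-11). Aldh1l2, a mitochondrial folate enzyme, fell by 1.08, and Trib3, a pseudokinase that restrains ATF4 signalling, by 0.84.

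Trib3 had 2356, 2897, 1993, 2552 and 2330.3 at 5000 µM, against 3851, 3813, 3702, 4842 and 5657 in vehicle wells, and the groups did not overlap. Ddit3 itself was 4035, 3704, 3523, 3306 and 3262 at 5000 µM, against 4892, 4813, 4636, 4852 and 4587 in vehicle wells (-0.42 ± 0.08 SE, limma adjusted p = 0.000138). At 24 h Ddit3 was called higher instead (0.28, limma adjusted p = 0.00758), and the effects at the 2 times differed (-0.69, limma adjusted p = 8.08e-05). Slc7a1, a cationic amino acid transporter, differed by -1.29 on its brightest probe set and by -0.41 on the mean of its probe sets, where the call was lost (limma adjusted p = 0.0662). Atf3, another stress factor of the list, fell by 0.38, and lost its call without the fifth treated array (-0.28, limma adjusted p = 0.0639).

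Some members stood outside the fall. Slc38a2, the SNAT2 amino acid transporter, was the 1 member called higher (0.36). Asns, asparagine synthetase, a classic ATF4 target named here after its values were seen, had overlapping groups (-0.16 ± 0.09 SE, limma adjusted p = 0.211). Gdf15, a stress hormone, was not called at 48 h (0.34, limma adjusted p = 0.0881) after a rise at 24 h (1.21, limma adjusted p = 1.54e-07), and the effects differed between times (-0.87, limma adjusted p = 0.00549). Gdf15 was called higher at 48 h when only the 10 arrays were used for the spread (limma adjusted p = 0.0334). At 500 µM the same 44 genes had a median of 0.24 against these vehicle arrays. Trib3 and Slc7a11 differed by 0.43 and 0.18 there.

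ATF4 and CHOP bind together at elements of the form TGATGNAA, and the upstream windows of Trib3 and Fgf21 are shown because both carry 1 match, in capitals, on the strand opposite to the gene. Both sequences are the 250 bases before the gene start from RefSeq (GRCr8), written toward the gene, at chr3:161275534-161275783 and chr1:105221377-105221626, minus strand, with matches at -21 and -143.
Trib3: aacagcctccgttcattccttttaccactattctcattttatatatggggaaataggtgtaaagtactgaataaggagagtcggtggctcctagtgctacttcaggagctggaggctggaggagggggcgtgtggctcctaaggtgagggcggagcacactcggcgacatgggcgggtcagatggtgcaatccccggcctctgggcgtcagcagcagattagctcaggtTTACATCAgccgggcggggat
Fgf21: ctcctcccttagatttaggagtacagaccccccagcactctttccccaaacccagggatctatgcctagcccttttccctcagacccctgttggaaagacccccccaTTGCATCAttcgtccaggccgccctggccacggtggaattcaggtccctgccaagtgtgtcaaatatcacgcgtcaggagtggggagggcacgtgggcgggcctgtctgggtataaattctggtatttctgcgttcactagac
The element, searched on both strands, was in 9 of the 23 members called lower that had a sequence, in 11 of the 39 tested members with one, and in 3.40% of all windows. These matches were read from sequence alone, and no binding was measured. Members were listed as targets of these factors, so their share beside that of all windows does not bear on the fall.

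Ribosome assembly genes were lower as well, and by smaller amounts. The list of ribosome biogenesis factors and Myc, the transcription factor that switches many of them on, had 27 of 49 members called lower and 0 higher (all genes: 18% and 14.6%), with a median of -0.28. Myc had 3254, 3074, 3073, 3624 and 3463 at 5000 µM, against 4503, 5962, 5916, 4905 and 6469 in vehicle wells, without overlap (-0.74 ± 0.09 SE, limma adjusted p = 1.78e-07). Ltv1 and Rrs1, which act in small and large subunit assembly, fell by 0.78 and 0.76. At 24 h, 19 of the 49 were called lower and 3 higher (all genes at 24 h: 19.6% and 18.6%). The ribosomal proteins moved less: 9 of 39 tested were called lower and 0 higher, and all 39 lay between -0.25 and 0.05.

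The inhibin gene Inhbe showed the largest fall of any gene that met the rule for named genes. Inhbe encodes the beta E subunit of activin E, a hormone made mainly by hepatocytes that acts on fat tissue. Its signals were 815, 578, 553, 562 and 560.3 at 5000 µM, against 4363, 3848, 4394, 4473 and 4058 in vehicle wells. Every treated array was below every vehicle array, with a log2 difference of -2.80 ± 0.12 (SE; limma adjusted p = 4.17e-18), against -2.89 at 24 h. At 500 µM and 48 h Inhbe differed from the same vehicle arrays by 0.18, and the difference between 5000 and 500 µM was -2.98 (limma adjusted p = 1.33e-18; 2.4e-13 with the 3′ to 5′ ratio as a covariate). Among 37 secreted carrier proteins, hormones and apolipoproteins, the list that holds Inhbe, 11 were called lower and 4 higher (all genes: 18% and 14.6%), with a median of -0.02.

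Part of the cytoskeletal and matrix-associated genes, which hepatocytes tend to gain in culture, was lower at 5000 µM. Of 35 tested members of a list of such genes, 20 were called lower and 0 higher, with a median of -0.30, against 18% and 14.6% of all genes. The other 15 were not called. They included the matrix-associated genes Ccn1 (-0.06), Ccn2 (-0.04), Tgfbi (-0.01), Tgfb2 (-0.25) and Mmp14 (0.13). The structural genes Actg1 (-0.01), Krt8 (-0.01), Krt18 (0.05) and Vcl (0.13) were not called either. S100a6, a calcium-binding protein of dividing and spreading cells, had 2374, 1881, 1525, 1328 and 1669 at 5000 µM, against 11525, 9915, 11595, 11804 and 11580.1 in vehicle wells. The groups lay far apart, with a log2 difference of -2.71 ± 0.12 (SE; limma adjusted p = 5.19e-18), the largest fall after Inhbe. Tagln2, an actin-binding protein, had 3422, 3373, 3127, 2625 and 2709 at 5000 µM, against 8649, 7269.6, 9078, 9832 and 10067 in vehicle wells (-1.56 ± 0.11 SE, limma adjusted p = 2.97e-13). Plat, tissue plasminogen activator, fell by 1.65, with treated signals of 239 to 689 that partly lay under 469, the mean signal of the dimmest gene tested. Vim, vimentin, the intermediate filament of spreading cells, named after its values were seen, fell by 0.93.

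In 14 of the 35 members the effect was more negative at 48 h than at 24 h, and in 1 more positive (all genes: 8.66% and 7.74%). S100a6 had differed by -1.05 at 24 h (difference of effects -1.66, limma adjusted p = 2.7e-08). Vim was already at -0.91 by 24 h, and the change between times was not called (limma adjusted p = 0.946). At 500 µM and 48 h, S100a6 differed by -1.24 and Tagln2 by -0.22 from the same vehicle arrays. Acta2, which also marks stellate cells, and Epcam, which also marks cholangiocytes, are members of this list.

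Interferon-stimulated and inflammatory genes moved in both directions, with the largest falls among the interferon-stimulated ones. Interferons act through STAT and IRF factors that bind interferon-stimulated response elements. The list held 34 tested members, of which 13 were called lower and 6 higher, with a median of -0.16 (all genes: 18% and 14.6%). Rsad2, the antiviral enzyme viperin, had 908, 626, 549, 878 and 734 at 5000 µM, against 2056, 2079, 2399, 2306 and 3388 in vehicle wells. All treated arrays lay below all vehicle arrays, with a log2 difference of -1.73 ± 0.18 (SE; limma adjusted p = 2.43e-09). Isg15, a ubiquitin-like modifier, had 1138, 725, 1014, 545 and 665 at 5000 µM, against 1802, 1718, 2460.2, 1844 and 2390.1 in vehicle wells (-1.36 ± 0.18 SE, limma adjusted p = 6.08e-07).

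Ifitm3, a membrane protein that blocks virus entry, was outside that list and was named for its difference between times. Its signals were 2907, 2984, 2456, 2062 and 2114 at 5000 µM, against 6544, 5730.3, 7398, 7240.0 and 6368 in vehicle wells (-1.42 ± 0.11 SE, limma adjusted p = 2.39e-12). At 24 h it had differed by -0.10, and the difference of effects was -1.32 (limma adjusted p = 2.22e-07). RT1-CE5, a rat MHC class I gene, was -1.13 at 48 h and 0.18 at 24 h, with a difference of effects of -1.31 (limma adjusted p = 5.42e-07). Class I genes are near-identical copies, so its probe sets may read several of them. The other probe sets of RT1-CE5 gave smaller falls of -0.92 and -0.36, and -0.43 and 0.11 that were not called (mean of all -0.55). Ifit2, named after its values were seen, fell by 0.87, and Mx2 by 1.06. Mx2 lost its call on the mean of its probe sets (-0.43, limma adjusted p = 0.071).

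The response element core TTTCNNTTT marks the upstream windows of Rsad2 and Ifitm3, shown with each match on either strand in capitals. They are the 250 bases before the gene start (RefSeq, GRCr8, chr6:48788121-48788370 and chr1:205541759-205542008, minus strand). The matches begin at -147 and -134 in Rsad2 and at -43 in Ifitm3.
Rsad2: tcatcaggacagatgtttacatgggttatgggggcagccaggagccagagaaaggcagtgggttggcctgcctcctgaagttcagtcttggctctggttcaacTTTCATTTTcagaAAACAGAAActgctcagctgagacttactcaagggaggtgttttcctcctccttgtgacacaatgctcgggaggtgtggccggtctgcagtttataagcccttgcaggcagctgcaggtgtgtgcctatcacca
Ifitm3: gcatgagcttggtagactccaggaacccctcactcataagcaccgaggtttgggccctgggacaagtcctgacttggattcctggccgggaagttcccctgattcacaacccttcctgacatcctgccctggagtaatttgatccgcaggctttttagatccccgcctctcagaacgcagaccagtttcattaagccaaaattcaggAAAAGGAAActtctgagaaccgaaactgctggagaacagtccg
The core was in 6 of the 9 list members called lower that had a sequence, in 12 of 27 tested members with one, and in 10.3% of all windows. Members were listed as interferon or inflammatory genes, so their share beside that of all windows does not bear on the falls, and no binding was measured.

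The 6 members called higher mixed both kinds of gene. Besides Cxcl1 and Nfkbia they were Cxcl12 and, named after their values were seen, Nfkbiz (0.38) and the interferon pathway factors Irf7 (0.30) and Stat2 (0.35), while Icam1, an inflammatory adhesion molecule also named after its value was seen, was called lower (-0.46). Cxcl1, a neutrophil-attracting chemokine, had 3058, 3595, 2955, 2399 and 2204 at 5000 µM, against 1348, 1206, 1386, 1966 and 2622 in vehicle wells, and 1 vehicle array reached into the treated range (0.78 ± 0.19 SE, limma adjusted p = 0.0014). Nfkbia, the inhibitor of NF-kappa-B that NF-kappa-B itself switches on, rose without overlap (0.52 ± 0.06 SE, limma adjusted p = 8.54e-09).

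**Figure D2:**
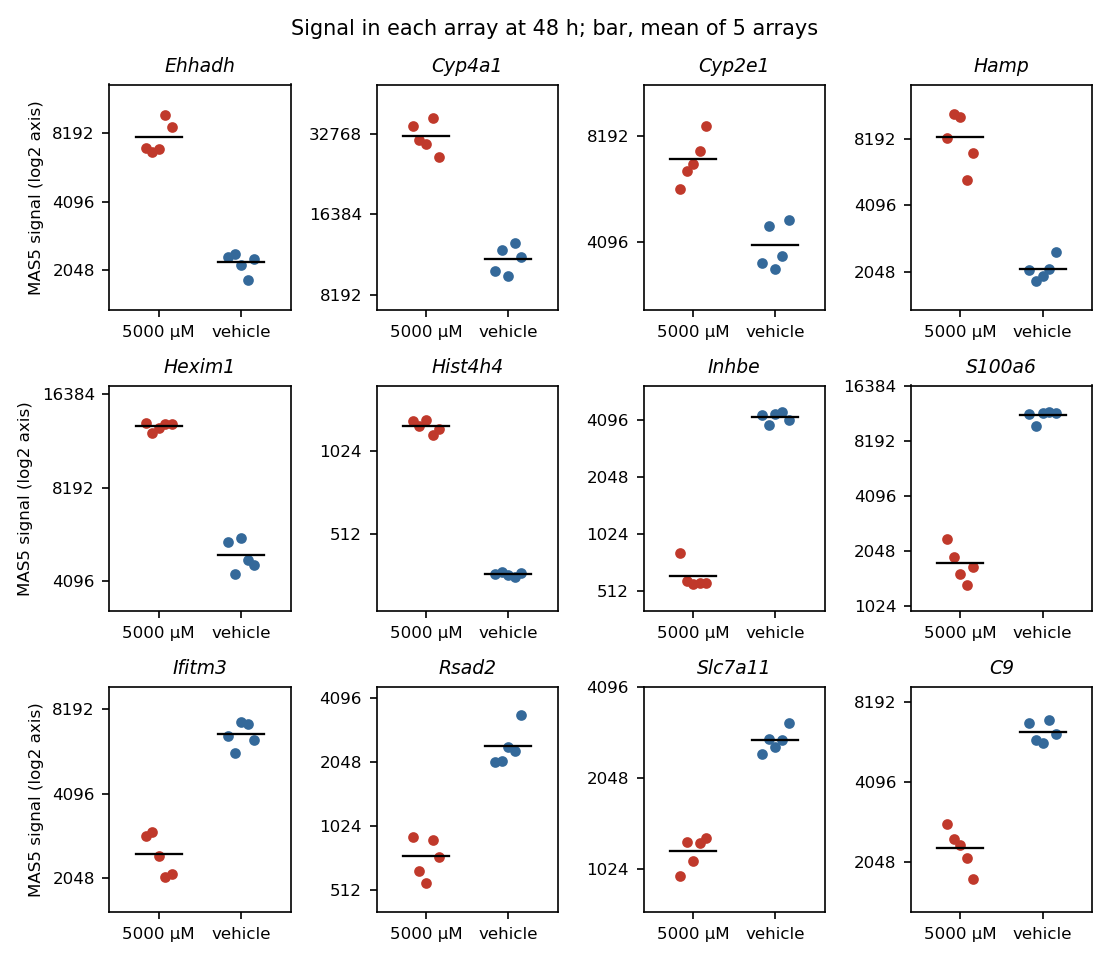
MAS5 signal of 12 genes in each array at 48 h on a log2 axis (each panel has its own range); points are arrays, 5000 µM on the left and vehicle on the right, and bars are means of 5. In all 12 panels the groups do not overlap, as in 25.4% of all genes tested: the first 6 genes are higher at 5000 µM and the last 6 are lower. The genes named for the largest changes were picked only where groups do not overlap, so this partly follows from the choice.

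Complement and other plasma proteins changed gene by gene. Among 37 acute phase and complement genes 14 were called lower and 2 higher (median -0.09), and among 27 coagulation factors and serpins 11 were called lower and 4 higher (median -0.09), against 18% and 14.6% of all genes. C9, the pore-forming component of complement, had 2825, 2492, 2356, 2118 and 1763 at 5000 µM, against 6819, 5866, 5751, 6991 and 6221 in vehicle wells, all treated arrays below all vehicle arrays (-1.47 ± 0.09 SE, limma adjusted p = 1.4e-14). C9 had differed by -0.33 at 24 h, less than at 48 h (difference of effects -1.13, limma adjusted p = 8.3e-08). C1s, the protease that starts the classical pathway, fell by 1.09 and A2m, a broad protease inhibitor and acute phase protein of the rat, by 0.92. C3, the central complement component, and C8a, a partner of C9, were the 2 called higher, at 0.23 and 0.32, and both had been lower at 24 h (-0.31 and -0.55). C3 was not called after centring of each array on its median (limma adjusted p = 0.0676).

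Klkb1, plasma prekallikrein, had the largest fall of the coagulation list: 929, 904, 859, 1028 and 1061 at 5000 µM, against 3560.2, 3815, 4145, 2917 and 2112 in vehicle wells (-1.76 ± 0.15 SE, limma adjusted p = 6.97e-11). Serpine2, protease nexin, rose by 1.06. Wfdc21, a small secreted protein with a WAP domain, had 11250.2, 11945, 8395, 7489 and 7999.6 at 5000 µM, against 32542, 29753, 29809.8, 29913 and 31258 in vehicle wells. All its treated arrays were lower, with a log2 difference of -1.73 at 48 h, against -0.43 at 24 h (difference of effects -1.29, limma adjusted p = 3.9e-08). Apoa5, an apolipoprotein that lowers plasma triglyceride, fell by 1.38, while Mttp, which loads lipid onto apolipoprotein B, rose by 0.49. Mttp had been lower at 24 h (-0.34).

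Hamp and Hexim1 were among the genes called higher at both times, and Hamp had the largest rise at 48 h. Hamp encodes hepcidin, the hormone that lowers iron release into plasma and that BMP-SMAD and STAT3 signals switch on. Its signals were 8286, 10633, 10337, 5333 and 7106 at 5000 µM, against 2075, 1859.8, 1961, 2109 and 2514 in vehicle wells. The lowest treated array was above the highest vehicle array, with a log2 difference of 1.95 ± 0.18 (SE; limma adjusted p = 4.34e-10), against 2.38 at 24 h and 0.06 at 500 µM. Among the 24 iron and metal genes tested, 9 were called higher and 4 lower (median 0.09; all genes: 14.6% and 18%). Aco1, the iron-sensing aconitase, rose by 0.54, and Steap4, a metalloreductase, had 2640.5, 2150.0, 1783, 1185 and 937 at 5000 µM, against 7319.6, 4509.6, 7965, 9910.4 and 6566 in vehicle wells (-2.11 ± 0.23 SE, limma adjusted p = 8.53e-09). Id2, a gene that BMP signals also switch on, rose by 0.47, while Id1, a like target, and the ligand Bmp2, both named after their values were seen, were not called (0.24 and 0.14).

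Hexim1, the inhibitor of the elongation kinase P-TEFb, had 13202, 12248, 12758, 13076 and 13166 at 5000 µM, against 5466, 4329, 5649.7, 4780.3 and 4630.1 in vehicle wells. Its treated arrays were close together and far above vehicle (1.38 ± 0.09 SE, limma adjusted p = 3.54e-14), and it differed by 1.52 at 24 h and -0.22 at 500 µM. Hist4h4, a histone H4 gene, had 1309, 1259, 1318, 1169 and 1223 at 5000 µM, against 371, 377, 367, 361 and 372 in vehicle wells (1.76 ± 0.20 SE, limma adjusted p = 2.43e-08), and H1f10, a linker histone, rose by 1.23. Histone genes are a family of near copies, and the vehicle signals of both genes lay partly or wholly under 469. The size of these rises may depend on the background correction, which was not tested. Slc6a13, a GABA and taurine transporter of the liver, had 4971, 5159.6, 5222, 4699.5 and 4481 at 5000 µM, against 1667, 1599, 1542, 1763 and 1367 in vehicle wells (1.63 ± 0.13 SE, limma adjusted p = 6.29e-12). Unlike Hexim1, it was not called at 24 h (0.09, difference of effects 1.54, limma adjusted p = 3.25e-07). The other genes among the 15 largest rises were Abhd15 (1.83), Gpr108 (1.23), Tmem132a (1.22), Apeg3 (1.22), the kinetochore gene Spc24 (1.20), Abhd1 (1.16), Ocel1 (1.15) and the leukaemia inhibitory factor receptor Lifr (1.13). All 5 vehicle signals of Abhd15, Gpr108 and Lifr also lay under 469, with the same limit on the size of their rises.

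The P450 enzymes moved apart from one another. Of 10 tested enzymes that oxidise acetaminophen or serve those that do, 4 were called higher and 1 lower (median 0.17; all genes: 14.6% and 18%). Cyp2e1 had 5789, 6539.9, 6848, 7432 and 8786 at 5000 µM, against 3581, 4566, 3432, 3739 and 4742 in vehicle wells. All treated arrays were above all vehicle arrays (0.82 ± 0.11 SE, limma adjusted p = 2.99e-07), and the difference was 0.79 at 24 h. Cyp2a2 rose by 0.76 at 48 h after -0.39 at 24 h (difference of effects 1.14, limma adjusted p = 1.29e-06), and Por, the reductase that passes electrons to P450 enzymes, rose by 0.44. Cyp3a18 was the 1 member called lower (-1.18). Cyp1a2 was not called (0.29, limma adjusted p = 0.0643), though it was called in 5 of 22 alternative settings.

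Among 22 other P450 enzymes 8 were called lower and 2 higher (all genes: 18% and 14.6%). Cyp2c12, a female-specific enzyme in adult rats, had 505, 285, 282, 503 and 49.3 at 5000 µM, against 1406, 1135, 1364, 817 and 813 in vehicle wells. The difference of -2.10 ± 0.34 (SE; limma adjusted p = 1.14e-05) became -1.51 without the lowest treated array, and the treated signals of Cyp2c12 lay partly under 469. Cyp2c11, the male-specific enzyme, fell by 1.33, and Cyp4f1, a leukotriene hydroxylase, by 1.19. In bile acid synthesis Cyp7a1, its rate-limiting enzyme, had 494, 421, 549, 432 and 300.2 at 5000 µM, against 1202, 1298, 939, 1061 and 797 in vehicle wells (-1.28 ± 0.19 SE, limma adjusted p = 3.3e-06). The treated signals of Cyp7a1 also lay partly under 469. Cyp8b1, which sets the share of cholic acid, rose by 0.51 at 48 h, after -0.72 at 24 h (difference of effects 1.22, limma adjusted p = 3.82e-07). The bile acid list as a whole had 9 of 27 members called lower and 5 higher (all genes: 18% and 14.6%), and 12 members had a more positive effect at 48 h than at 24 h, against 7.74% of all genes. A pair of ABC transporters moved in opposite directions: Abcb4, which exports phosphatidylcholine into bile, rose by 0.65, and Abcb1a, P-glycoprotein, fell by 0.99.

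Conjugating enzymes changed gene by gene. Of 18 glucuronidation and sulfation genes tested 6 were lower and 1 higher (median -0.12), and of 32 glutathione transferases and peroxidases 9 were lower and 6 higher (median -0.05), against 18% and 14.6% of all genes. Ugt2b1, a glucuronosyltransferase, fell by 0.94, while Sult1a1, the phenol sulfotransferase, did not pass the test (0.05, limma adjusted p = 0.696). Gstt3, a theta class transferase, rose by 1.08 and Gstm3, a mu class transferase, fell by 1.05. Sult6b2, named by the rule on size and in no list, had 1520.5, 1421, 1248, 1401 and 1408 at 5000 µM, against 5343, 4500.2, 5731, 5252 and 5029.7 in vehicle wells (-1.88 ± 0.08 SE, limma adjusted p = 4.17e-18). Gstp1, the pi class transferase, did not pass the test (-0.04, limma adjusted p = 0.792).

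NRF2, the sensor of electrophiles that acetaminophen's quinone imine can trip, switches on glutathione synthesis and quinone reduction. Of 29 tested NRF2 targets and glutathione genes 14 were called lower and 1 higher (median -0.14; all genes 18% and 14.6%). Akr1b8, an aldose reductase, had 982, 889, 805, 745 and 704 at 5000 µM, against 3312, 2800.2, 3003, 3749 and 4519 in vehicle wells (-2.06 ± 0.13 SE, limma adjusted p = 3.54e-14). Maff, a small Maf partner of NRF2, fell by 1.67, and Hmox1, haem oxygenase 1, by 0.48. Nqo1, a quinone reductase and a standard NRF2 readout, had 30519.8, 37211, 33433, 34841 and 34395 at 5000 µM, against 32633, 31922, 30646, 32552 and 37211 in vehicle wells, and the groups overlapped (0.05 ± 0.07 SE, limma adjusted p = 0.683). The 2 subunits of glutamate-cysteine ligase, which makes glutathione, gave -0.04 for Gclc (limma adjusted p = 0.728) and -0.26 for Gclm (limma adjusted p = 0.00724). Gclm was not called after such centring (limma adjusted p = 0.0689). Txnrd1 and Srxn1, which renew thioredoxin and peroxiredoxin, were 0.21 and -0.16 and were not called (limma adjusted p = 0.0605 and 0.0627), though each was called in some alternative settings. The antioxidant response element core TGACNNNGC, searched on both strands, was in 1 of the 12 NRF2 list members called lower that had a sequence, in 2 of 26 tested members with one, and in 10.1% of all windows.

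Of 23 p53 targets 8 were called lower and 4 higher (median -0.10; all genes: 18% and 14.6%). Ccng1, cyclin G1, had 6230.2, 6589.9, 6167, 6340.0 and 7454 at 5000 µM, against 11876, 10782, 12069.6, 13244 and 15221 in vehicle wells (-0.94 ± 0.08 SE, limma adjusted p = 2.12e-11), a larger fall than the -0.27 of 24 h (difference of effects -0.67, limma adjusted p = 6.29e-05). Aen, an apoptosis nuclease, fell by 0.76, and Gadd45b, a stress sensor, rose by 0.39. Cdkn1a, the p21 cell cycle inhibitor, was not called (-0.20, limma adjusted p = 0.277), though it was called lower in 2 of 22 alternative settings, among them the mean of its probe sets (-0.26, limma adjusted p = 0.00661). Mdm2, the p53 ubiquitin ligase, was called lower by 0.17 in the fit described but not in 6 of 22 alternative settings.

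In lipid synthesis, 11 of 38 fatty acid and triglyceride genes were called higher and 7 lower (median 0.05), and 3 of 24 cholesterol genes higher and 10 lower (median -0.03), against 14.6% and 18% of all genes. Elovl2 and Fads1, which lengthen and desaturate polyunsaturated fatty acids, rose by 1.07 and 0.68. Fads1 had been lower at 24 h (-0.68, difference of effects 1.36, limma adjusted p = 2.33e-06). Scd2, a stearoyl-CoA desaturase, had 389.9, 348, 331, 544 and 386 at 5000 µM, against 2006, 1672, 1824, 1732 and 1847 in vehicle wells (-2.20 ± 0.17 SE, limma adjusted p = 4.82e-12). Its other probe sets were dim and the mean of all of them was -0.83, so the size of the fall depends on the probe set. Pmvk, of the mevalonate pathway, fell by 0.51. Nr1h3, the oxysterol receptor LXR-alpha, fell by 0.63 at 48 h and 0.99 at 24 h.

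Urea cycle and amino acid catabolism had 22 of 67 genes called lower and 9 higher, with a median of -0.07 (all genes: 18% and 14.6%). At 24 h, on other arrays, 42 were called lower and 2 higher, against 19.6% and 18.6% of all genes. In 25 of the 67 the effect was more positive at 48 h and in 1 more negative, against 7.74% and 8.66% of all genes. Gpt, alanine aminotransferase, a clinical marker of liver injury when it leaks from cells, had 3551, 2898, 2374, 2605 and 2296 at 5000 µM, against 8573, 9034, 10187, 8119 and 5795 in vehicle wells (-1.60 ± 0.13 SE, limma adjusted p = 3.85e-11). Gpt was the exception in time, with -0.61 at 24 h (difference of effects -0.99, limma adjusted p = 0.000441). Kmo, of tryptophan breakdown, and Aass, of lysine breakdown, fell by 1.30 and 1.23. Mat1a, which makes S-adenosylmethionine, was called higher (0.40) after a lower value at 24 h (-0.27).

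**Figure D3:**
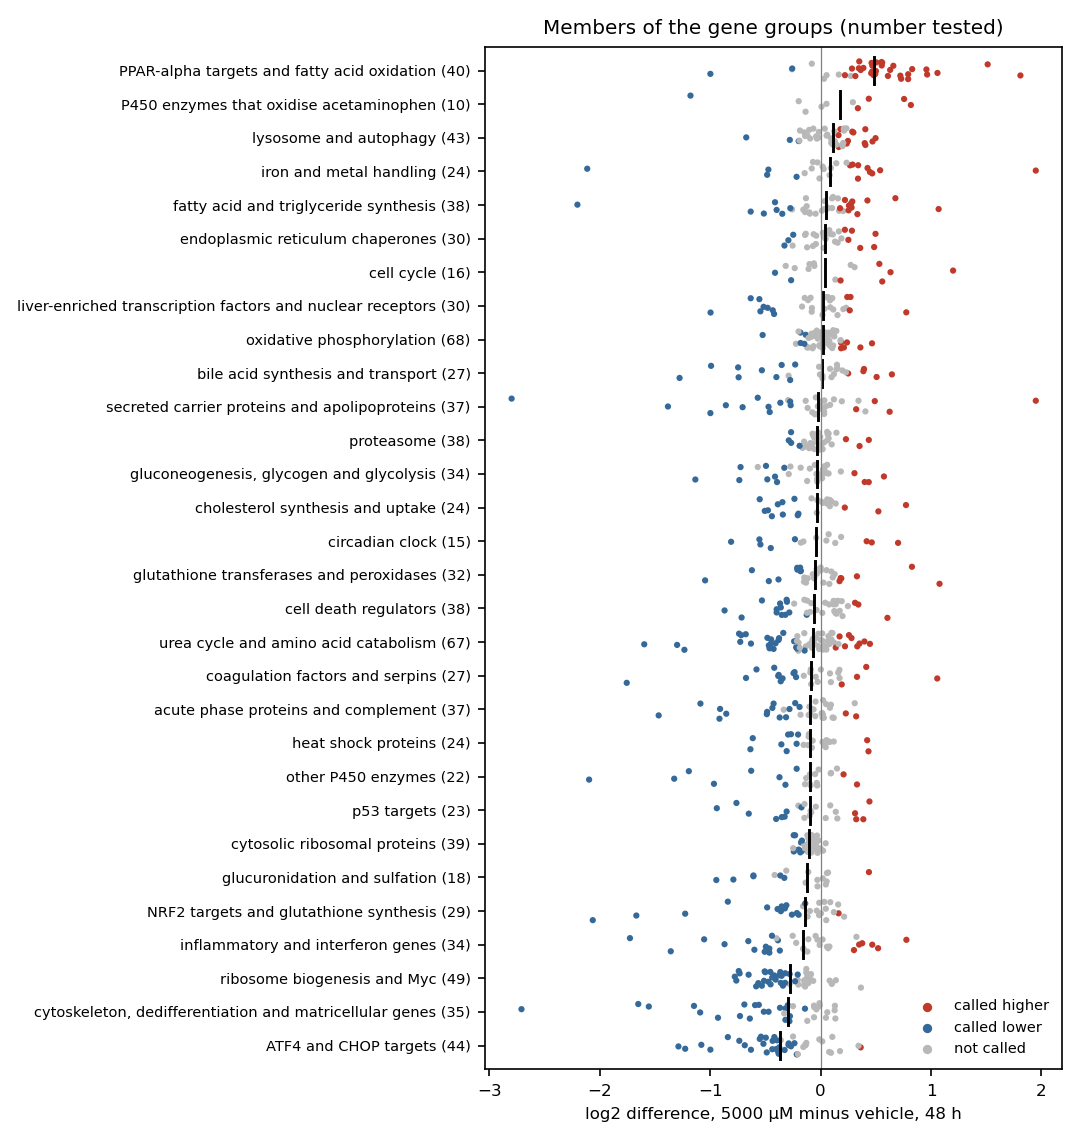
Log2 difference at 48 h (5000 µM minus vehicle) of each tested member of 30 gene groups, sorted by the group's median (black bar); red points were called higher, blue called lower, grey not called. The fatty acid oxidation list has the highest median (0.48) and the ATF4 and CHOP list the lowest (-0.37).

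Across all genes, 1467 called at 48 h were called in the same direction at 24 h, 128 in the opposite direction, and 1184 were called at 48 h but not at 24 h. Of those 1184, 423 differed between times by the test of the difference. In all, 1399 genes (16.4%) had an effect that differed between times, 660 more positive and 739 more negative at 48 h. Adding the 3′ to 5′ ratio to the model left 821 such genes, 747 of them among the 1399 and in the same direction. Of 123 genes named in the text and followed through alternative settings, 61 differed between times, and 47 of these were still called with the covariate. Cxcl12, which also differed between times (0.79, limma adjusted p = 0.00109), was not among the 123. The exceptions were Abhd15, Lifr, LOC100912629, Cyp2c12, Rsad2, Plat, Isg15, Cyp2c11, Abcb4, Nr1h3, Gys2, Casp12, Tnfsf10 and Bcar1. With arrays centred on their medians 46 of the 61 were still called, and the exceptions were Lifr, LOC100912629, Rsad2, Plat, Vnn1, Isg15, Tagln2, C1s, Serpine2, Cyp2c11, Aen, Nr1h3, Casp12, Tnfsf10 and Epcam. Ndrg1, a stress and hypoxia response gene, was among those that held, with 1898, 1687, 1446, 1408 and 1039 at 5000 µM, against 5046, 4356, 4685, 5077 and 4982 in vehicle wells (-1.72 ± 0.16 SE at 48 h; -0.31 at 24 h; difference of effects -1.41, limma adjusted p = 4.13e-05).

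**Figure D4:**
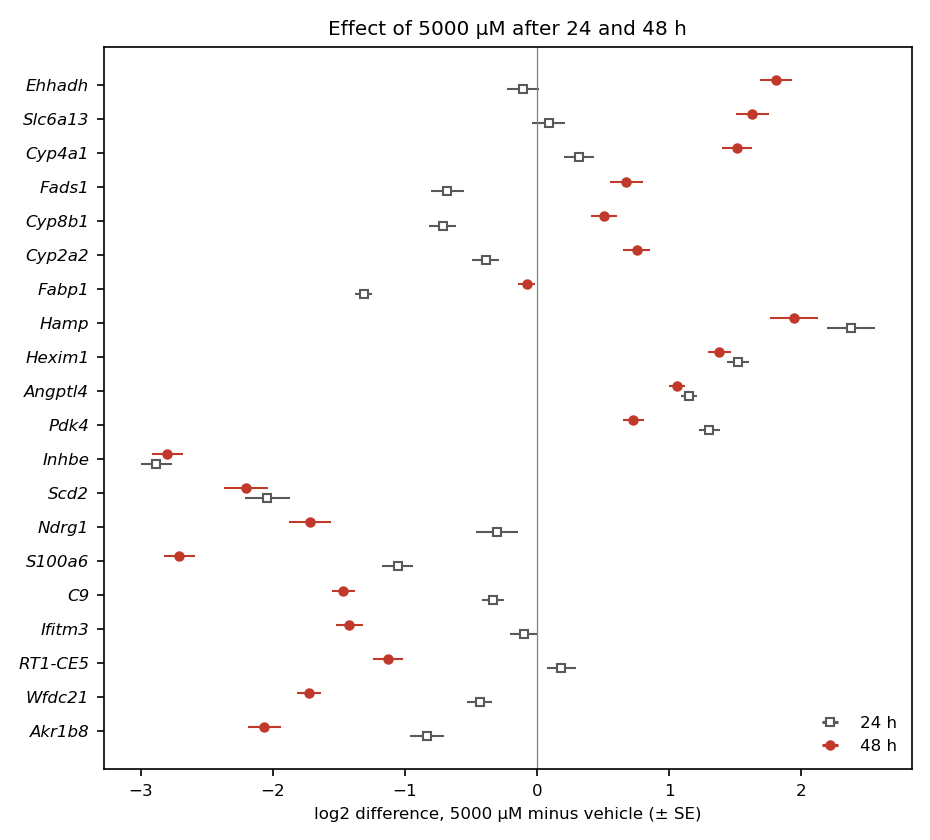
Log2 difference between 5000 µM and vehicle wells (horizontal axis, ± SE, n = 5 each) of 20 genes at 24 h (open squares) and 48 h (filled circles). The SE comes from limma's fit over all 30 arrays and not from the spread of the plotted wells alone. Inhbe, Hamp, Hexim1 and Scd2 lie close together at both times, while Ehhadh, Slc6a13, S100a6 and Ifitm3 lie apart.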

How the data were processed

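RNA of 30 wells in 6 groups of 5 was hybridised to Affymetrix rat arrays. Intensities were computed by the authors with MAS5, per the submitters' processing notes, and deposited as linear values. Their trimmed means lay between 1500.55 and 1500.66, so every array had been scaled to 1 level. Of 31099 probe sets 57 were controls, 20826 had 1 gene symbol in the platform annotation, 436 several and 9780 none here, and 20758 matched a current RefSeq gene (GRCr8) by Entrez identifier. Annotation may be old, and no genome build was needed for the signals.

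From the deposited intensities, log2 values were taken with no further scaling. The probe set with the highest mean over 30 arrays stood for each of 14217 genes, and the brightest 60%, 8531 genes, were tested. limma 3.58.1 in R 4.3.3 fitted a mean per group over all 30 arrays with an intensity trend (residual degrees of freedom 24), and p-values were adjusted by the Benjamini-Hochberg method over the genes tested. Contrasts were 5000 µM minus vehicle at 48 h, the difference of that effect from 24 h, and 5000 minus 500 µM at 48 h. The array number, 5 a group, limits the precision. The 3′ to 5′ ratios were compared by exact permutation.

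The named genes rule took, of called genes, the 15 largest rises and falls without overlap of groups, up to 3 a direction in each of 35 lists, the 5 largest differences between times in each direction, and a fixed set of acetaminophen response genes. It gave 194 genes, of which the text describes the larger part; exceptions are marked. Lists and members were chosen with earlier results of these data known. The fit was tested on simulated data, and alternatives covered the spread, normalisation, filter, floor, pseudocount, probe set choice, ratio covariate and a block of title runs. Upstream sequences came from RefSeq.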

Additional observations from a re-analysis of the deposited data

Results flagged for a closer look

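Of 123 genes named in the text and followed through alternative settings, 61 had an effect that differed between 48 and 24 h. The test was limma's contrast of the effects of 5000 µM (adjusted p under 0.05). Differences of effects are log2, 48 h minus 24 h, 14 of the 61 were not called with the 3′ to 5′ ratio as a covariate, and 46 were still called with arrays centred on their medians. The ratio differed between dose groups at 24 h, and its part was not tested beyond that fit.

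Effects were more positive at 48 h in lipid oxidation and lipid handling, by 1.92 for Ehhadh, 1.20 for Cyp4a1, 0.98 for Cyp4a3, 0.56 for Acsl1, 0.35 for Vnn1, 1.23 for Fabp1, 1.36 for Fads1, 0.83 for Mttp and 0.36 for Nr1h3. Among detoxification, transport and bile acid genes the differences were 1.14 for Cyp2a2, 0.57 for Por, 1.08 for Gstt3, 0.38 for Abcb4, 1.22 for Cyp8b1, 1.81 for Sult2a6 and 1.54 for Slc6a13. The complement genes C8a and C3 gave 0.87 and 0.54. Further values were 0.56 for Aco1, 0.67 for Mat1a, 0.68 for Gys2, 0.55 for Calr, 0.62 for Tnfsf10, 0.34 for Psap, 1.20 for Spc24, 0.66 for Abhd15, 0.62 for Abhd1, 0.57 for Lifr and 2.59 for Bcar1.

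Effects were more negative at 48 h for the cytoskeletal and matrix-associated genes S100a6 (-1.66), Tagln2 (-0.62), Plat (-0.84) and Epcam (-0.31). Interferon and antigen presentation genes gave -1.32 for Ifitm3, -1.31 for RT1-CE5, -0.72 for Rsad2 and -0.75 for Isg15. Secreted proteins gave -1.13 for C9, -0.34 for C1s, -0.76 for A2m, -0.52 for Serpine2, -1.29 for Wfdc21 and -0.67 for Apoa5. Stress genes gave -0.69 for Ddit3, -0.87 for Gdf15, -0.65 for Slc7a11, -1.23 for Akr1b8, -0.74 for Maff, -1.41 for Ndrg1, -0.73 for Hspb1, -0.67 for Ccng1, -0.34 for Aen and -0.78 for Casp12. Enzymes gave -1.61 for Cyp2c12, -0.63 for Cyp2c11, -0.60 for Cyp3a18, -0.48 for Gstm3, -0.99 for Gpt, -0.94 for Pfkp and -0.58 for Pdk4, and LOC100912629 gave -0.81.

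In 12 of 246 gene and group pairs, 1 of the 5 arrays at 48 h lay far from the others by Dixon's criterion, which chance does in about 1 in 20 groups. At 5000 µM these arrays had signals of 815 for Inhbe, 49.3 for Cyp2c12, 10429.8 for Gclc, 20798 for Gclm and 16094 for Mat1a. In vehicle wells they had 9915 for S100a6, 4240.4 for Nfkbia, 8063 for C1s, 13194 for Cyp2a2, 13048 for Gclc, 1699 for Abcb1a and 119.8 for Bcar1.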

How the results depend on the processing

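The fit was repeated under 12 other settings and without each of the 10 arrays in turn, and 123 genes named in the text were followed. No count or followed gene turned its direction when called. Without 1 array, 2500 to 2608 genes were called, 1118 to 1174 higher and 1376 to 1434 lower, 114 to 125 of them at least 2-fold, while 1181 to 1409 differed between times and 3705 to 4075 between doses. The 117 genes of at least 2-fold became 252 with no filter on dim genes and 74 when only the brightest 40% were tested, by the number and brightness of genes tested. The 1399 genes that differed between times became 615 with arrays centred on their medians, 600 of them shared and in the same direction, and 821 with the 3′ to 5′ ratio as a covariate. The 4064 genes called between doses became 1782 with that covariate. Centring on the medians left 1867 genes called at 48 h, 831 higher and 1036 lower, and the cause was not tested. Of 109 followed genes that were called, 99 kept the call in all 22 settings and 10 lost it in some. Some genes named as called, Cxcl12, Nfkbiz, Irf7, Stat2 and Icam1 among them, were not followed. The running numbers in the titles fall in runs of 6 with 1 array of each group. As a replicate block, a setting chosen after seeing the data, these runs gave 2916 genes called at 48 h, 1323 higher and 1593 lower. In that setting 1634 genes differed between times. Of the followed genes Cyp1a2, Txnrd1 and Srxn1 passed the threshold there (limma adjusted p = 0.0439, 0.0442 and 0.0345). The labels do not say what a run shares, and arrays of 1 run deviated together weakly: treated and vehicle arrays at 48 h correlated at -0.06 to 0.21 within runs, and 2 of 10 correlated best with their own run, so the numbers were not taken as pairs. The precision of dim genes is limited by signal over background. Signals under 469 may affect the size of several changes, those of Cyp2c12, Cyp7a1, Cebpd, Scd2, Plat, Znf750, Abhd15 and Gpr108 among them. The table has no detection calls or probe signals, so no other background correction could be tried.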

Other observations

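Further gene groups at 48 h are read against 14.6% of all genes called higher and 18% called lower. Some of them moved little, while lysosome and autophagy genes leaned higher and heat shock and cell death genes leaned lower. Of 30 endoplasmic reticulum chaperones tested 6 were called higher and 3 lower, among them Calr, the calcium-binding chaperone calreticulin (0.49). Of 24 heat shock proteins 2 were called higher and 8 lower, with the small heat shock proteins Hspb1 and Cryab at -0.61 and -0.64. Among 43 lysosome and autophagy genes 12 were called higher and 3 lower, Psap, the precursor of the saposins, at 0.50. Of 38 cell death regulators 3 were called higher and 13 lower, including the executioner caspase Casp6 (0.61), the inflammatory-class caspase Casp12 (-0.87) and the death ligand Tnfsf10 (-0.72). The 68 oxidative phosphorylation subunits had 6 called higher and 5 lower, with a median of 0.03, and the 38 proteasome subunits 3 higher and 4 lower.

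In glucose metabolism 4 of 34 genes were called higher and 8 lower. For each group in this paragraph the shares over all genes were 14.6% called higher and 18% called lower. Pfkp, the platelet type of phosphofructokinase, was -1.13 and Gys2, liver glycogen synthase, was -0.73. Of 15 clock genes 3 were called higher and 5 lower, with Npas2, a partner of BMAL1, at -0.81. Of 30 liver transcription factors 4 were called higher and 8 lower. Onecut2, a hepatocyte factor of the HNF6 family, was 0.78, and Cebpd, an acute phase factor, was -0.997 on its brightest probe set. On the mean of all its probe sets Cebpd was -0.40 and was not called (limma adjusted p = 0.236). The treated signals of the brightest probe set of Cebpd lay partly under 469. Of 16 cell cycle genes 5 were called higher and 2 lower, which included Spc24, at 0.00 after 24 h.

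Some of the genes with the largest change of effect between 24 and 48 h were not called or were scattered between wells at 48 h. Sult2a6, a hydroxysteroid sulfotransferase, differed by -2.12 at 24 h and by -0.31 at 48 h, where it was not called (limma adjusted p = 0.339). Bcar1, an adhesion scaffold, was dim and scattered, with signals of 114 to 658 at 5000 µM, against 119.8 to 169.9 in vehicle wells. Among the 15 largest falls, Znf750 and LOC100912629 had treated signals of at most 363 and 423, under the 469 of the dimmest gene tested, and differed by -1.75 and -2.32.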
